A study of Mus musculus with 36 samples.

Results

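The change in XY germ cells of the fetal mouse between 11.5 and 12.5 days post coitum (dpc) was measured on 6 of the 36 arrays of the series, 3 at 12.5 dpc and 3 at 11.5 dpc. The arrays were chosen by their labels alone, as those of the Oct4 reporter in XY gonads at these stages. Germ cells carry a fluorescent reporter of Oct4, the pluripotency factor also called Pou5f1, and were collected by flow sorting from trypsinised gonads that had been pooled by sex. All 6 samples came from progeny of C57BL/6NJ on a mixed genetic background and differed in stage alone, so far as the labels give it. XX germ cells at 12.5 and 11.5 dpc and XY germ cells at 13.5 dpc, from the same reporter and background, served for comparison. Supporting cells of XY gonads at 12.5 dpc, labelled Sox9 where the germ cells are labelled Oct4, gave reference levels. The arrays were Affymetrix Mouse Gene 1.0 ST, which hold probes along whole transcripts, and 19938 genes were tested. Levels are log2 expression values, on which a difference of 1 is a 2-fold change. No label states whether replicates were separate collections of embryos. The p-values rest on a spread per gene that 35 of the 36 arrays share, in 12 groups that include supporting cells. They therefore measure only how those arrays vary within their groups, and that variation may be technical. With 3 arrays per group the precision is limited.

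Primordial germ cells reach the mouse gonad shortly before these stages, still dividing and still expressing pluripotency genes. In the gonad they erase most of their DNA methylation, and genes that somatic cells keep methylated at their promoters, many of them for meiosis and for the piRNA pathway that silences transposons, become active. On the later of these days the testis forms its cords, and germ cells inside them are steered away from meiosis. In the ovary they turn to meiosis under retinoic acid and BMP signals, with Stra8 as the gatekeeper.

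The sorted cells carried the markers of germ cells at both stages. The median level of 10 fixed germ cell markers was 10.5 to 10.7 in the 12.5 dpc arrays and 10.0 to 10.7 in the 11.5 dpc arrays, against 6.06 to 6.50 in supporting cells of XY gonads at 12.5 dpc. The median of 8 supporting cell markers was 6.91 to 6.99 at 12.5 dpc and 6.66 to 6.93 at 11.5 dpc, against 10.2 to 10.4 in those supporting cells. Stromal, Leydig, endothelial, macrophage, erythroid and mesonephric markers had medians of 4.85 to 7.25 at 12.5 dpc and 5.04 to 7.38 at 11.5 dpc. The erythroid marker Hbb-y stood higher, at 8.75 to 9.22 at 12.5 dpc and 9.21 to 10.02 at 11.5 dpc. It was at 9.07 to 11.56 in those supporting cells, and a part of blood cells was not tested. None of the 50 measured markers of the 8 cell types passed the limma test between the stages, and 12 had an unadjusted p under 0.05, 7 of them among the 10 germ cell markers. Of all 19938 genes tested, 1908 had such a p, a smaller share than among the germ cell markers. Counts of unadjusted p in the lists below are to be read against this share. In these sorted pools fewer cells of a type and less RNA per cell cannot be told apart. The array labelled XX germ cells at 12.5 dpc, replicate 3, stood apart, with a germ cell marker median of 6.03 and a stromal marker median of 10.3. It was left out of the fits, so XX germ cells at 12.5 dpc have 2 arrays. The rows of each array also fell into interleaved sets on slightly different scales, whose medians lay 0.222 to 0.742 apart in these 6 arrays. Every result is given on the deposited values, and where putting the sets on a common scale (row sets aligned) ends a call, this is said beside it. Of the 357 genes that passed with row sets aligned alone, only some are named.

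Over the day 262 genes changed, which is 1.31% of the genes tested, at a limma adjusted p under 0.05. Of these, 146 rose (0.732%) and 116 fell (0.582%), and 138 of the 262 changed at least 2-fold, 73 of them higher and 65 lower at 12.5 dpc. The median difference over all genes was 0.03. In 244 of the 262 the arrays of the stages did not overlap, as in 11.7% of all genes tested. With the array that stood apart kept in the fit, 104 genes passed, although it belongs to neither stage of XY germ cells. In that fit the differences between the stages of XY germ cells were the same, and 32 of the named genes past the test lost the call. Called members numbered 1 in place of 6 for the piRNA pathway, 2 in place of 5 for meiosis, 1 in place of 3 for BMP and 0 in place of 5 for male germ cell differentiation. Tdrd5, Peg10, Id2, Aldh1a1, Spo11, Dmc1, Cpeb1, Itga6 and Rb1 were among the 32 (adjusted p = 0.116 to 0.513). With row sets aligned 588 genes passed (2.95%), 260 higher (1.3%) and 328 lower (1.65%). The 588 included 231 of the 262 genes, and all 262 kept their direction.

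The largest rise was that of Mgst2, a microsomal glutathione transferase, which stood at 10.25, 10.18 and 10.33 at 12.5 dpc, against 7.50, 6.78 and 7.82 at 11.5 dpc. The 12.5 dpc arrays lie close together and far above the others, with a difference of 2.89 (SE 0.33, adjusted p = 5.83e-08). Hesx1, a homeobox repressor known from the forebrain and pituitary, stood at 7.35, 8.07 and 8.12 at 12.5 dpc, against 6.10, 5.43 and 5.53 at 11.5 dpc. Its difference was 2.16 (SE 0.22, adjusted p = 1.55e-09). Ddx43, an RNA helicase of the germline, stood at 8.85, 9.55 and 9.32 at 12.5 dpc, against 7.71, 6.97 and 6.65 at 11.5 dpc, and its difference was 2.13 (SE 0.26, adjusted p = 1.63e-07). Bnc2, a basonuclin zinc finger protein needed for male germ cell development in the mouse, stood at 8.67, 8.09 and 8.65 at 12.5 dpc, against 6.75, 6.48 and 6.30 at 11.5 dpc, and its difference was 1.96 (SE 0.23, adjusted p = 1.53e-07). The largest rises were chosen among called genes whose stages do not overlap, so the gap between the stages is a property of the choice. Dgka, a kinase of diacylglycerol, rose by 1.93 (SE 0.22, adjusted p = 3.2e-08), and its 11.5 dpc arrays lay close together at 6.41 to 6.64. Among the 12 largest rises were also Man2a1, a Golgi mannosidase that trims N-glycans, at 1.72, and Cthrc1, a secreted matrix protein, at 1.71. Ccdc172 and 1700024G13Rik rose by 1.84 and 1.63. The other 3 of the 12, Sycp2, Tex11 and Cst9, are described with their groups below.

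**Figure D1:**
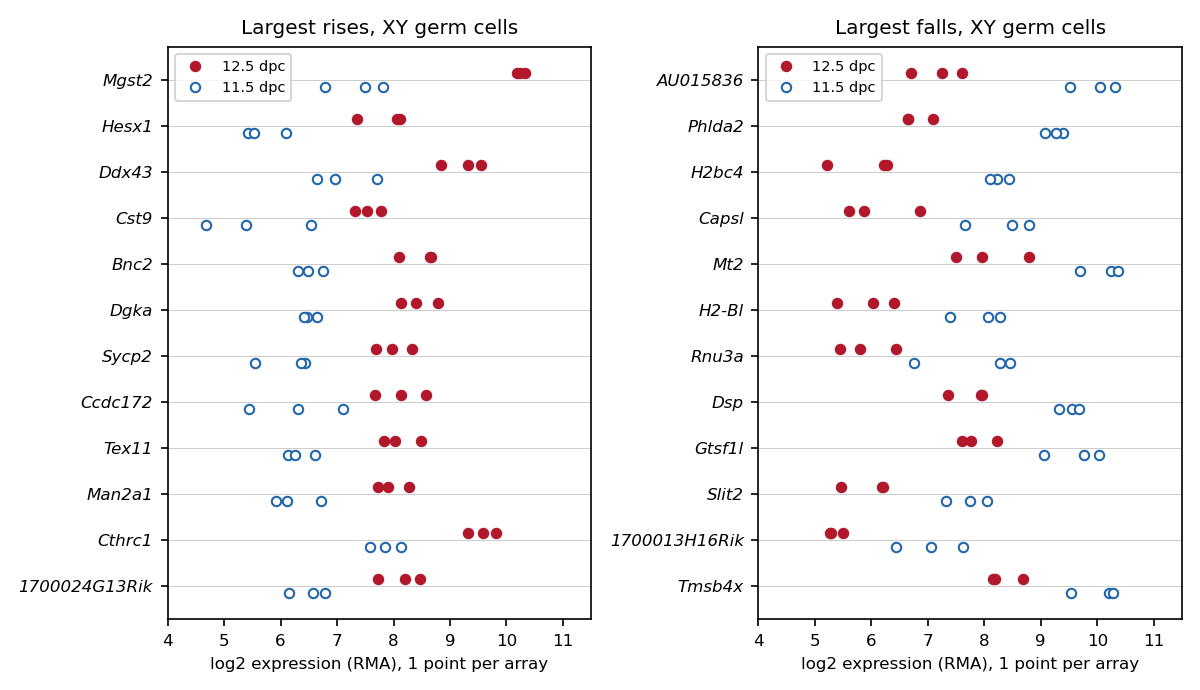
Log2 expression of the 12 genes with the largest rise (left) and the 12 with the largest fall (right) in XY germ cells, 1 point per array, filled for 12.5 dpc and open for 11.5 dpc, 3 arrays per stage. Genes were chosen among those past the test whose stages do not overlap, so the gap between filled and open points is a property of the choice; Mgst2 at 10.18 to 10.33 at 12.5 dpc against 6.78 to 7.82 at 11.5 dpc and AU015836 at 6.71 to 7.60 at 12.5 dpc against 9.51 to 10.31 at 11.5 dpc are the largest in each direction.

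The largest fall was that of AU015836, a gene on the X chromosome, which stood at 6.71, 7.24 and 7.60 at 12.5 dpc, against 10.05, 9.51 and 10.31 at 11.5 dpc. The difference was -2.77 (SE 0.27, adjusted p = 9.71e-10). The largest falls, too, were chosen among called genes whose stages do not overlap, so a gap between the stages is a property of the choice. Mt2, a metallothionein that binds zinc and copper, stood at 7.95, 7.51 and 8.79 at 12.5 dpc, against 10.24, 9.70 and 10.36 at 11.5 dpc, with a difference of -2.02 (SE 0.31, adjusted p = 2.35e-05). Dsp, which encodes the desmosome protein desmoplakin, stood at 7.94, 7.35 and 7.97 at 12.5 dpc, against 9.56, 9.67 and 9.32 at 11.5 dpc. Its difference was -1.76 (SE 0.20, adjusted p = 3.03e-08). Slit2, a secreted guidance cue, had a difference of -1.75 (SE 0.25, adjusted p = 6.3e-06), and Tmsb4x, the actin-binding thymosin beta 4, of -1.66 (SE 0.28, adjusted p = 0.000111). Gtsf1l, a relative of a piRNA factor, stood at 7.76, 8.22 and 7.61 at 12.5 dpc, against 10.03, 9.77 and 9.06 at 11.5 dpc, and its difference was -1.76 (SE 0.23, adjusted p = 1.45e-06). Capsl, a calcium-binding protein, had a difference of -2.19 (SE 0.31, adjusted p = 5.72e-06). H2bc4, a histone H2B gene, and H2-Bl, of the MHC class I family, had differences of -2.34 (SE 0.33, adjusted p = 5.72e-06) and -1.97 (SE 0.24, adjusted p = 2.47e-07). Both belong to families of near-identical copies, whose probes can share signal, so their identity is uncertain. Rnu3a, a U3 small nucleolar RNA, and 1700013H16Rik on the X chromosome were also among the 12 largest falls, at -1.93 and -1.70. Phlda2, at -2.45, completes the 12 and is described with the imprinted genes below.

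Among germline genes that somatic cells keep methylated, more rose than fell. Of 19 measured members 7 rose and 1 fell, against 0.732% and 0.582% of all genes, and the median difference was 0.72, against 0.03 over all genes. Tex11, an X-linked factor of meiotic recombination, stood at 7.83, 8.48 and 8.03 at 12.5 dpc, against 6.61, 6.14 and 6.26 at 11.5 dpc, and its difference was 1.78 (SE 0.22, adjusted p = 3.03e-07). Sycp1, which forms the central filaments of the synaptonemal complex that joins meiotic chromosomes, stood at 7.86, 9.04 and 8.11 at 12.5 dpc, against 6.86, 6.37 and 7.02 at 11.5 dpc, with a difference of 1.58 (SE 0.24, adjusted p = 2.48e-05). Brdt, a testis bromodomain protein, stood at 7.22, 8.02 and 7.40 at 12.5 dpc, against 6.03, 6.28 and 6.30 at 11.5 dpc, with a difference of 1.34 (SE 0.20, adjusted p = 1.04e-05). In these genes each 12.5 dpc array was above every 11.5 dpc array. Slc25a31, a germline ADP/ATP carrier of mitochondria, stood at 8.65, 8.44 and 7.95 at 12.5 dpc, against 7.996, 6.71 and 7.03 at 11.5 dpc. Its lowest 12.5 dpc array lay just below its highest 11.5 dpc array, and the difference was 1.10 (SE 0.23, adjusted p = 0.00262). Mael, the piRNA factor maelstrom, stood at 9.55, 9.78 and 9.73 at 12.5 dpc, against 8.85, 9.07 and 8.09 at 11.5 dpc, with a difference of 1.02 (SE 0.22, adjusted p = 0.00411). Sycp3, of the lateral elements of the synaptonemal complex, stood at 9.71, 9.48 and 10.17 at 12.5 dpc, against 8.96, 8.62 and 8.26 at 11.5 dpc, with a difference of 1.17 (SE 0.27, adjusted p = 0.0103). The seventh member that rose was Tdrd1, a tudor protein of the piRNA pathway, by 0.82 (SE 0.23, adjusted p = 0.0481). Rpl10l, a ribosomal protein gene of the testis, was the member that fell, with a difference of -1.14 (SE 0.25, adjusted p = 0.00708). Rpl10l lost the call without 12.5 dpc replicate 1 or 2 or without 11.5 dpc replicate 1 (adjusted p = 0.0516 to 0.224). The call for Slc25a31 was lost without 12.5 dpc replicate 1 or without 11.5 dpc replicate 2 (adjusted p = 0.0502 to 0.073). Mael did not pass without 11.5 dpc replicate 3 (adjusted p = 0.151). Sycp3 fell short of the test without 12.5 dpc replicate 3 or without 11.5 dpc replicate 3 (adjusted p = 0.124 to 0.13). In Tdrd1 the call ended without 12.5 dpc replicate 1 or 2 or without 11.5 dpc replicate 1 or 2 (adjusted p = 0.0804 to 0.448). With the array that stood apart kept in the fit, the differences were the same and the adjusted p was 0.766 for Mael, 0.399 for Slc25a31, 0.66 for Sycp3 and 0.27 for Tdrd1. The list was drawn up from knowledge of these genes with earlier results on these arrays known.

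RefSeq promoter windows of this group, from 250 bases before to 50 after the annotated start in GRCm38.p6, were searched for CACGTG, an E-box whose letters are their own reverse complement, so that a match counts for both strands. Windows were given for 18 of the 19 members, and 10 held the motif. They included all 6 members that rose and had a window, namely Mael, Sycp1, Sycp3, Slc25a31, Brdt and Tdrd1. Among the 12 members that did not rise, Ddx4, Hormad1, Stk31 and Taf7l held it, and Rpl10l did not. Of all tested genes with a window, 9.5% of 15614 held it in at least 1 of their windows, as did 7.15% of 32851 windows. The motif stood in 21 of 121 genes that rose (17.4%) and in 5 of 90 genes that fell (5.56%). A match describes these letters in this window and was not tested for binding. The windows of 4 members that rose are printed to show the motif, in capitals, and that of Mgst2 because the gene with the largest rise has neither the motif nor a cg in its window.
Mael, chr1:166238695-166238994, minus strand: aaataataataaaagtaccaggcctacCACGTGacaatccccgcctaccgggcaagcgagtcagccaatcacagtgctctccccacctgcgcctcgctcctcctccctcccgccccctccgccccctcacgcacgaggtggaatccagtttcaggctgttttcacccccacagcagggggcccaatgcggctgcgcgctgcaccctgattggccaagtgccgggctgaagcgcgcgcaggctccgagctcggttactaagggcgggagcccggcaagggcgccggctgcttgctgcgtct
Sycp1, chr3:102936051-102936350, minus strand: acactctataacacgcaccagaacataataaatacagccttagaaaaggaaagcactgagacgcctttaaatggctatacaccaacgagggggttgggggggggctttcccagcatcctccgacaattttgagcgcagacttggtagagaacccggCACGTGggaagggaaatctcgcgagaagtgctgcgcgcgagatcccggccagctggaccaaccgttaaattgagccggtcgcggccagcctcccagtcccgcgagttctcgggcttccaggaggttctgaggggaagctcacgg
Sycp3, chr10:88459337-88459636, plus strand: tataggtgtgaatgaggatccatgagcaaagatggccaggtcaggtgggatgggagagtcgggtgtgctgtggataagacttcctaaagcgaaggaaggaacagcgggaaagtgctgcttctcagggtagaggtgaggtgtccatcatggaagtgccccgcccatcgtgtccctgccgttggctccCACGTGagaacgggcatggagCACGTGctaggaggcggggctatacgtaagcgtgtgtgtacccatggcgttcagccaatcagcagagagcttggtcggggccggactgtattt
Slc25a31, chr3:40708621-40708920, plus strand: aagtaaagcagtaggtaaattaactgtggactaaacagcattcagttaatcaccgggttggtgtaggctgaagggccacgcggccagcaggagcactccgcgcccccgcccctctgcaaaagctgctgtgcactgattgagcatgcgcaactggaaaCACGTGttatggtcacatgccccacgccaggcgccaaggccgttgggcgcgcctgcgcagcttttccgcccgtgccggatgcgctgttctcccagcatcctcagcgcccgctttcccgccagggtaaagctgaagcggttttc
Mgst2, chr3:51660929-51661228, plus strand: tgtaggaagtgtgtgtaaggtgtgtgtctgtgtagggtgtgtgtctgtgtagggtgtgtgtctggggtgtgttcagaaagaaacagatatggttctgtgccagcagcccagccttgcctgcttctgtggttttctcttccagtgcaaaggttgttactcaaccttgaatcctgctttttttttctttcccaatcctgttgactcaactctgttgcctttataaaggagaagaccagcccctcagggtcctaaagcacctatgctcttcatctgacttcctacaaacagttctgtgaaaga
Counted from the annotated start as 0, the motif began at -223 in Mael, -94 in Sycp1, -64 and -43 in Sycp3 and -93 in Slc25a31. The dinucleotide cg occurred 24 times in the window of Mael, 21 times in Sycp1, 15 times in Sycp3 and 22 times in Slc25a31. Its median was 21 over the windows of the group, 25 over those of all genes that rose, 25 over those of mitosis genes and 16 over all tested genes, with the richest window of each gene counted.

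Meiosis genes rose in part. Of 26 measured members 5 rose and none fell, against 0.732% and 0.582% of all genes, with a median difference of 0.32. Besides Sycp1 and Sycp3 these were Sycp2, Dmc1 and Spo11. Sycp2, a partner of Sycp3 in the lateral elements, stood at 7.70, 8.32 and 7.97 at 12.5 dpc, against 6.43, 5.55 and 6.36 at 11.5 dpc, and its difference was 1.88 (SE 0.24, adjusted p = 4.1e-07). Spo11, which cuts DNA to start meiotic recombination, stood at 6.21, 6.71 and 7.22 at 12.5 dpc, against 6.03, 5.29 and 5.30 at 11.5 dpc, with a difference of 1.18 (SE 0.23, adjusted p = 0.00133). Dmc1, the strand exchange protein of meiotic recombination, stood at 8.01, 9.79 and 9.02 at 12.5 dpc, against 8.40, 7.49 and 7.22 at 11.5 dpc. Its stages overlapped, since the 12.5 dpc array at 8.01 was below the 11.5 dpc array at 8.40, and the difference was 1.24 (SE 0.29, adjusted p = 0.0103). Spo11 missed the test without 12.5 dpc replicate 3 (adjusted p = 0.053). The call for Dmc1 was lost without 12.5 dpc replicate 2 or 3 or without 11.5 dpc replicate 2 or 3 (adjusted p = 0.0577 to 0.343). Stra8, the gatekeeper of meiosis, stood at 5.68, 5.84 and 5.59 at 12.5 dpc, against 5.17, 5.32 and 5.68 at 11.5 dpc, and its difference was 0.31 (SE 0.21, adjusted p = 0.733). Rec8, the meiotic cohesin subunit, had a difference of -0.17 (SE 0.23, adjusted p = 0.916). Neither passed the test in XY germ cells, while the 5 members that rose encode parts of the synaptonemal complex and of the recombination machinery.

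The piRNA pathway, whose small RNAs guard the germline against transposons, had 6 members that rose and none that fell of 19 measured. Of all genes 0.732% rose and 0.582% fell. The median difference of the pathway was 0.59. Tdrd5, a tudor protein of the germ granules, stood at 9.97, 10.48 and 10.28 at 12.5 dpc, against 9.10, 8.90 and 8.43 at 11.5 dpc, and its difference was 1.44 (SE 0.22, adjusted p = 2.35e-05). Tdrd7, of the same family, stood at 7.92, 8.07 and 7.60 at 12.5 dpc, against 6.39, 6.64 and 6.97 at 11.5 dpc, with a difference of 1.20 (SE 0.21, adjusted p = 0.000254). Neither gene had overlapping stages. Tdrkh, a tudor protein of mitochondria, rose by 0.92 (SE 0.24, adjusted p = 0.0306), and Mov10l1, the helicase that prepares piRNA precursors, by 0.87 (SE 0.22, adjusted p = 0.0244). Mael and Tdrd1, given above, were the others. Tdrkh did not pass without 12.5 dpc replicate 1, 2 or 3 or without 11.5 dpc replicate 2 or 3 (adjusted p = 0.0516 to 0.365). Mov10l1 fell short of the test without 12.5 dpc replicate 1, 2 or 3 or without 11.5 dpc replicate 2 or 3 (adjusted p = 0.0642 to 0.127). Ddx4, the germline helicase also called mouse vasa homolog, stood at 11.59, 11.44 and 11.69 at 12.5 dpc, against 10.89, 10.46 and 10.87 at 11.5 dpc, and its difference of 0.83 (SE 0.27, adjusted p = 0.158) did not pass. With row sets aligned its difference was 0.97 and the adjusted p was 0.0179.

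**Figure D2:**
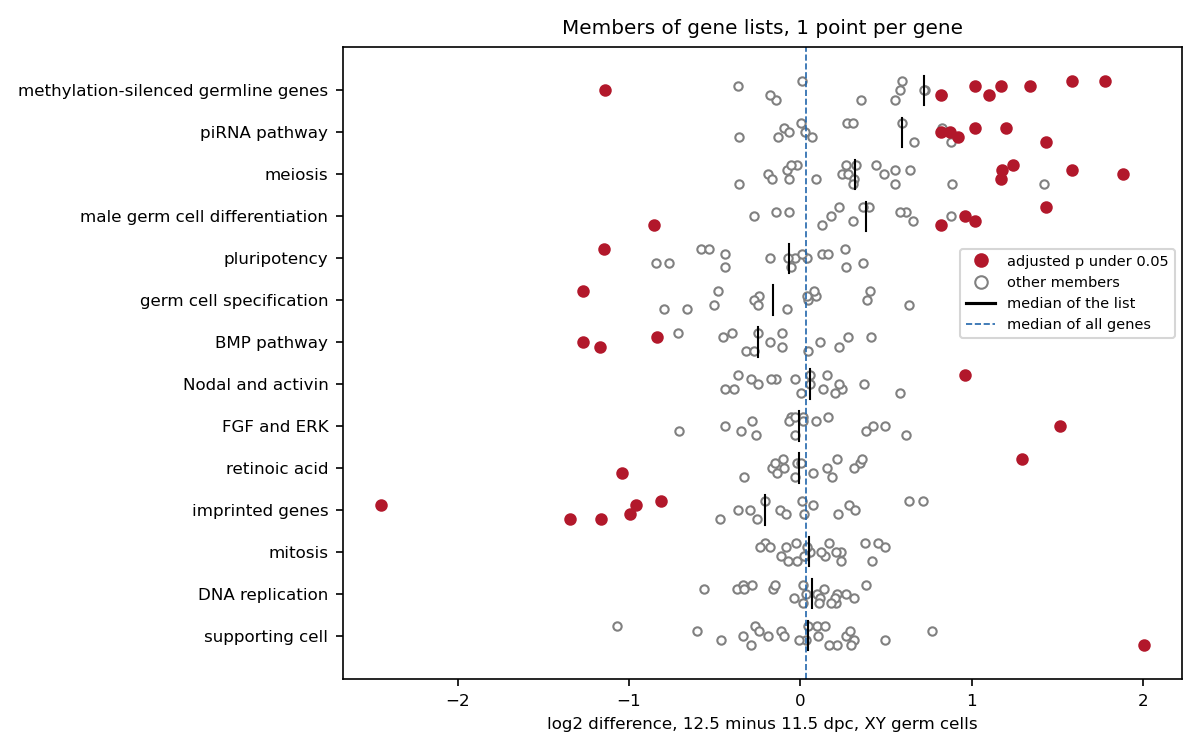
Log2 difference between 12.5 and 11.5 dpc in XY germ cells for the measured members of 14 gene lists, 1 point per gene, filled where the adjusted p is under 0.05, with the median of each list as a bar and that of all genes as a dashed line. Filled points lie to the right for the methylation-silenced, piRNA and meiosis lists (7, 6 and 5 genes that rose, with 1 methylation-silenced gene, Rpl10l, to the left) and to the left for BMP and imprinted genes (3 and 6 genes that fell); mitosis and DNA replication have none.

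Most genes of male germ cell differentiation did not pass the test. Of 18 measured, 4 rose and 1 fell, against 0.732% and 0.582% of all genes, and 9 had an unadjusted p under 0.05. Of the 4, 3 were the piRNA factors Tdrd1, Tdrd5 and Mael. The other was Lefty2, a secreted inhibitor of Nodal signals, which stood at 6.16, 6.31 and 7.33 at 12.5 dpc, against 5.71, 5.61 and 5.57 at 11.5 dpc. Replicate 3 of 12.5 dpc was the highest, and the difference was 0.96 (SE 0.23, adjusted p = 0.0123). In Lefty2 the call ended without 12.5 dpc replicate 3 or without 11.5 dpc replicate 3 (adjusted p = 0.0664 to 0.294). Morc1, a silencer of transposons in male germ cells, was the member that fell, with a difference of -0.85 (SE 0.23, adjusted p = 0.0393). Morc1 missed the test without 12.5 dpc replicate 1 or 2 or without 11.5 dpc replicate 1 or 2 (adjusted p = 0.065 to 0.553). Nanos2, the RNA-binding switch of male fate, stood at 5.89, 7.11 and 6.25 at 12.5 dpc, against 6.19, 5.56 and 6.39 at 11.5 dpc. The stages overlapped, and the difference was 0.37 (SE 0.23, adjusted p = 0.678). Dnmt3l, the cofactor of de novo DNA methylation, stood at 5.18, 5.41 and 5.41 at 12.5 dpc, against 4.65, 4.63 and 4.74 at 11.5 dpc, at the low end of the scale, with a difference of 0.66 (SE 0.20, adjusted p = 0.0945). With row sets aligned its difference was 0.18 (adjusted p = 0.317). On the next day Nanos2 rose by 3.42 (adjusted p = 7.98e-16), a contrast that shares the 12.5 dpc arrays.

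Most genes of pluripotency and germ cell specification did not pass the test, with 1 faller in each list, against 0.582% of all genes. In each list 6 members had an unadjusted p under 0.05, of 18 and 16 measured, as had 1908 of all 19938 genes. Of 18 pluripotency genes, only Tfcp2l1, a transcription factor of the naive state, fell, and it stood at 7.16, 6.70 and 6.69 at 12.5 dpc, against 7.88, 7.97 and 8.14 at 11.5 dpc. Its difference was -1.15 (SE 0.20, adjusted p = 0.000309), and the median of the list was -0.06. Pou5f1, the gene whose reporter was used for the sort, stood at 11.28, 10.66 and 10.80 at 12.5 dpc, against 11.30, 11.03 and 11.999 at 11.5 dpc, with a difference of -0.53 (SE 0.25, adjusted p = 0.483). Nanog stood at 9.31, 8.99 and 9.30 at 12.5 dpc, against 9.99, 9.71 and 10.42 at 11.5 dpc, without overlap, and its difference of -0.84 (SE 0.24, adjusted p = 0.0664) missed the threshold. With row sets aligned Nanog had a difference of -0.65 and an adjusted p of 0.0313. Sox2 had a difference of -0.44 (SE 0.21, adjusted p = 0.492). Aligned row sets gave 4 fallers in the pluripotency list, with Esrrb at -0.85 (adjusted p = 0.00308) and Klf2 at -0.40 (adjusted p = 0.0448) beside Nanog and Tfcp2l1. Of 16 genes of germ cell specification, only Alpl, the alkaline phosphatase by which these cells were long recognised, fell. It stood at 7.86, 8.90 and 7.74 at 12.5 dpc, against 9.67, 9.49 and 9.15 at 11.5 dpc, with a difference of -1.27 (SE 0.24, adjusted p = 0.000757). Prdm1, Prdm14 and Kit had differences of 0.08, 0.04 and 0.05, and Tfap2c and Nanos3 of -0.80 and -0.66, none past the test. Tfap2c and Nanos3 passed with row sets aligned, at -1.01 and -0.66 (adjusted p = 0.0309 and 0.0127), and the specification list then had 4 fallers and 1 riser. Dppa3 and Dazl, at 0.63 and 0.73, did not pass either. With row sets aligned they were at 0.17 and 0.66 (adjusted p = 0.866 and 0.111), and another probe set of Dppa3 had a difference of 0.38.

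Of 17 measured targets and components of BMP signalling 3 fell and none rose, against 0.582% and 0.732% of all genes, with a median of -0.25. Id3, an inhibitor of helix-loop-helix factors and a direct BMP target, stood at 7.34, 8.43 and 7.83 at 12.5 dpc, against 9.33, 8.44 and 9.32 at 11.5 dpc, and its difference was -1.17 (SE 0.23, adjusted p = 0.00186). Id2, of the same family, stood at 6.78, 5.98 and 6.36 at 12.5 dpc, against 7.70, 6.99 and 8.24 at 11.5 dpc, with a difference of -1.27 (SE 0.30, adjusted p = 0.0142). In both genes each 12.5 dpc array was below each 11.5 dpc array, narrowly for Id3. Msx2, a homeobox target of BMP, fell by 0.84 (SE 0.22, adjusted p = 0.0295), and its stages overlapped. The call for Id3 was lost without 12.5 dpc replicate 1 (adjusted p = 0.0698). Id2 did not pass without 12.5 dpc replicate 2 or 3 or without 11.5 dpc replicate 1 or 3 (adjusted p = 0.0588 to 0.247). Msx2 fell short of the test without 12.5 dpc replicate 1 or 3 or without 11.5 dpc replicate 1 or 3 (adjusted p = 0.0746 to 0.283).

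Over all genes 0.732% rose and 0.582% fell, the shares against which the lists of this paragraph are to be read. In the FGF and ERK list 1 of 18 genes rose and none fell. This was Etv1, an ETS transcription factor downstream of FGF, which stood at 10.82, 10.99 and 10.73 at 12.5 dpc, against 9.26, 8.68 and 10.04 at 11.5 dpc. Its difference was 1.52 (SE 0.24, adjusted p = 4.6e-05), and a dimmer probe set of the gene had a difference of 2.11. The other ETS targets of FGF were not past the test, with differences of 0.38 for Etv4 and -0.03 for Etv5. Il17rd of this list passed with row sets aligned only, at 0.53 (adjusted p = 0.0099). In the Nodal and activin list 1 of 19 rose, Lefty2. Nodal itself stood at 7.14, 7.68 and 7.39 at 12.5 dpc, against 7.66, 6.98 and 7.996 at 11.5 dpc, with a difference of -0.14 (SE 0.20, adjusted p = 0.917), and its inhibitor Lefty1 had a difference of 0.59 (SE 0.23, adjusted p = 0.315). Lefty1 passed with row sets aligned, at 0.56 (adjusted p = 0.0127). In the retinoic acid list 1 of 18 rose and 1 fell. Aldh1a1, which makes retinoic acid, stood at 7.14, 7.15 and 7.78 at 12.5 dpc, against 6.39, 5.85 and 5.96 at 11.5 dpc, with a difference of 1.29 (SE 0.22, adjusted p = 0.000194). Crabp1, which binds retinoic acid in the cytoplasm, stood at 9.72, 10.38 and 10.24 at 12.5 dpc, against 11.63, 10.35 and 11.49 at 11.5 dpc, with overlapping stages and a difference of -1.04 (SE 0.26, adjusted p = 0.0266). In Crabp1 the call ended without 12.5 dpc replicate 1 or 3 or without 11.5 dpc replicate 1 or 3 (adjusted p = 0.0577 to 0.289). Cyp26b1, which breaks retinoic acid down, had a difference of 0.35 (SE 0.22, adjusted p = 0.679). None of 13 WNT targets passed, 1 had an unadjusted p under 0.05, and the lowest p was that of Notum, an inhibitor of WNT ligands, at -0.44 (SE 0.20, adjusted p = 0.447). With row sets aligned Lef1 of this list passed, at -0.49 (adjusted p = 0.00484).

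Imprinted genes, which are expressed from the copy of a given parent, fell in 6 of 21 cases and rose in none, against 0.582% and 0.732% of all genes. The median difference was -0.21. Phlda2, which restrains placental growth, stood at 6.64, 7.10 and 6.66 at 12.5 dpc, against 9.39, 9.08 and 9.27 at 11.5 dpc. Its stages were far apart, with a difference of -2.45 (SE 0.22, adjusted p = 1.9e-10). Peg10, a gene derived from a retrotransposon, stood at 7.80, 7.11 and 7.32 at 12.5 dpc, against 8.76, 8.47 and 9.03 at 11.5 dpc, with a difference of -1.34 (SE 0.26, adjusted p = 0.00139). Slc38a4, an amino acid transporter, stood at 8.98, 9.10 and 9.41 at 12.5 dpc, against 10.71, 10.18 and 10.09 at 11.5 dpc, with a difference of -1.17 (SE 0.24, adjusted p = 0.00225). Both had no overlap. The other members that fell were Impact, a regulator of translation, with a difference of -0.96 (SE 0.22, adjusted p = 0.00762), Peg3, a zinc finger protein, with -0.81 (SE 0.20, adjusted p = 0.0217), and Grb10, an adaptor that dampens insulin receptor signals, with -0.99 (SE 0.25, adjusted p = 0.0283). Grb10 lost the call without 12.5 dpc replicate 1, 2 or 3 or without 11.5 dpc replicate 3 (adjusted p = 0.0699 to 0.44). The members above 0 included Mest at 0.72 and Usp29 at 0.63, neither past the test. Usp29 passed with row sets aligned, at 0.75 (adjusted p = 0.0107). Slc38a4 missed the test without 11.5 dpc replicate 1 (adjusted p = 0.0532). The call for Impact was lost without 12.5 dpc replicate 1 or without 11.5 dpc replicate 1 (adjusted p = 0.0538 to 0.105). Peg3 did not pass without 12.5 dpc replicate 1 or 3 or without 11.5 dpc replicate 1 or 3 (adjusted p = 0.0614 to 0.384). With the array that stood apart kept in the fit, Peg10, Impact, Peg3 and Grb10 lost the call (adjusted p = 0.0957 to 0.581). Phlda2 and Slc38a4 kept it.

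Few regulators of DNA methylation or of RNA passed the test. Of 18 genes of DNA methylation 1 rose and 1 fell, against 0.732% and 0.582% of all genes. Gadd45a, a stress-induced gene linked to DNA repair, stood at 7.23, 7.81 and 7.98 at 12.5 dpc, against 10.06, 8.93 and 8.93 at 11.5 dpc, and its difference was -1.64 (SE 0.24, adjusted p = 1.38e-05). Uhrf1, which brings the maintenance methyltransferase to replicated DNA, stood at 9.45, 9.75 and 9.04 at 12.5 dpc, against 8.48, 8.07 and 8.91 at 11.5 dpc, with a difference of 0.92 (SE 0.22, adjusted p = 0.0117). Uhrf1 fell short of the test without 12.5 dpc replicate 1 or 2 or without 11.5 dpc replicate 2 (adjusted p = 0.0546 to 0.183). Of 18 RNA-binding regulators 1 rose and 1 fell, against the same shares of all genes. Cpeb1, which controls the poly(A) tails of stored messages in germ cells, stood at 9.93, 9.42 and 9.45 at 12.5 dpc, against 8.29, 8.08 and 8.22 at 11.5 dpc, a clear separation with a difference of 1.41 (SE 0.20, adjusted p = 4.01e-06). Mov10, a helicase and the somatic relative of Mov10l1, stood at 9.60, 9.46 and 9.59 at 12.5 dpc, against 10.33, 10.11 and 10.43 at 11.5 dpc, with a difference of -0.74 (SE 0.19, adjusted p = 0.0282). In Mov10 the call ended without 12.5 dpc replicate 1, 2 or 3 or without 11.5 dpc replicate 1 or 3 (adjusted p = 0.0699 to 0.161).

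Genes of mitosis and of DNA replication gave no calls over this day, in which 0.732% of all genes rose and 0.582% fell. None of 22 mitosis genes and none of 22 DNA replication genes passed, with medians of 0.05 and 0.07, and 2 and 1 of them had an unadjusted p under 0.05. Of all 19938 genes 1908 had such a p. Mki67, a marker of dividing cells, stood at 10.02, 10.10 and 10.39 at 12.5 dpc, against 10.47, 9.99 and 10.13 at 11.5 dpc. The stages overlapped, with a difference of -0.03 (SE 0.23, adjusted p = 0.989). Of 18 genes that control the G1 phase, Rb1, the retinoblastoma brake on the cycle, rose. It stood at 9.81, 9.53 and 9.91 at 12.5 dpc, against 8.83, 8.76 and 8.72 at 11.5 dpc, with a difference of 0.98 (SE 0.20, adjusted p = 0.00265). Cdkn1b, an inhibitor of cyclin-dependent kinases, ranged from 7.40 to 9.40 at 12.5 dpc and from 7.77 to 8.81 at 11.5 dpc, with a difference of 0.31 (SE 0.33, adjusted p = 0.877). Cdkn2b, of another inhibitor family, had a difference of 0.22 (SE 0.19, adjusted p = 0.821). Of 13 apoptosis genes Pmaip1, the p53 target also called Noxa, rose by 0.93 (SE 0.23, adjusted p = 0.0215). Pmaip1 missed the test without 12.5 dpc replicate 1 or 3 or without 11.5 dpc replicate 1 or 2 (adjusted p = 0.0546 to 0.208).

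In adhesion and migration 2 of 18 genes rose and none fell, against 0.732% and 0.582% of all genes. The same shares apply to the other lists of this paragraph. Itga6, an integrin that binds laminin, stood at 8.15, 7.91 and 8.02 at 12.5 dpc, against 6.42, 6.69 and 7.41 at 11.5 dpc, with a difference of 1.18 (SE 0.23, adjusted p = 0.00103). Cdh1, the epithelial cadherin that germ cells use to gather, rose by 0.72 (SE 0.19, adjusted p = 0.0376), but with row sets aligned its difference was 0.23 and its adjusted p 0.53. The call for Cdh1 was lost without 12.5 dpc replicate 1, 2 or 3 or without 11.5 dpc replicate 1, 2 or 3 (adjusted p = 0.0507 to 0.283). Cxcr4, the receptor that guides migrating germ cells, had a difference of -0.01 (SE 0.28, adjusted p = 0.997). In metabolism, none of 16 glycolysis genes passed and 4 had an unadjusted p under 0.05, as had 1908 of all 19938 genes. The median of the list was -0.24. Ldha, lactate dehydrogenase A, had a difference of -0.85 (SE 0.24, adjusted p = 0.0561), and with row sets aligned -0.68 and an adjusted p of 0.017. Pfkp also passed with row sets aligned, at -0.85 (adjusted p = 0.00478). Scd1, which desaturates fatty acids, was the faller among 18 genes of lipid and cholesterol synthesis. It stood at 5.92, 6.27 and 5.64 at 12.5 dpc, against 7.39, 7.46 and 7.73 at 11.5 dpc, with a difference of -1.59 (SE 0.25, adjusted p = 2.9e-05). Of 6 Rhox homeobox genes on the X chromosome, Rhox10 rose by 0.86 (SE 0.21, adjusted p = 0.0154) and Rhox6 fell by 0.99 (SE 0.25, adjusted p = 0.0249). Rhox10 did not pass without 12.5 dpc replicate 2 or without 11.5 dpc replicate 1 or 2 (adjusted p = 0.0769 to 0.199). Rhox6 fell short of the test without 12.5 dpc replicate 1 or 2 or without 11.5 dpc replicate 1 (adjusted p = 0.136 to 0.285). Of 15 genes of dissociation stress Ier3, an immediate early gene, fell by 1.09 (SE 0.22, adjusted p = 0.00234), and 4 had an unadjusted p under 0.05. With row sets aligned 3 of them fell. Beside Ier3 these were Jun at -1.28 (adjusted p = 0.0206) and Ier2 at -0.60 (adjusted p = 0.0156).

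Lists of other cell types moved in few members, to be read against 0.732% of all genes that rose and 0.582% that fell. Of 25 supporting cell genes Cst9, a cystatin of early Sertoli cells, rose and none fell. It stood at 7.32, 7.52 and 7.77 at 12.5 dpc, against 5.40, 4.67 and 6.53 at 11.5 dpc, with a difference of 2.01 (SE 0.30, adjusted p = 1.62e-05), and at 12.2 on average in supporting cells of XY gonads at 12.5 dpc. With row sets aligned Dmrt1 of this list also rose, at 0.52 (adjusted p = 0.0187), and Nr0b1 fell, at -1.23 (adjusted p = 0.00863). Sox9 and Amh, which define Sertoli cells, had differences of 0.14 and -0.11. Their 12.5 dpc germ cell arrays lay at 7.61 to 8.15 for Sox9 and at 5.71 to 6.27 for Amh, against averages of 11.5 and 9.99 in those supporting cells, which are themselves labelled Sox9. Hsd17b3, an enzyme of testosterone synthesis, was the 1 of 7 genes in the Leydig cell list that rose, by 0.95 (SE 0.20, adjusted p = 0.00369). It too stood high in the supporting cells, with an average of 11.5. Aldh1a1 and Gatm, the enzyme of creatine synthesis, also stood high there, at 11.2 and 11.9. The summed linear level of the supporting cell list was 11.9 to 12.1 on the log2 scale at 12.5 dpc and 11.7 to 12.1 at 11.5 dpc, against 14.7 to 14.8 in the supporting cells. The part of other cells in these genes was not tested. Of 16 stromal genes Ptch1, the hedgehog receptor, rose by 1.04 (SE 0.22, adjusted p = 0.00354), and of 11 genes of mesonephros and epithelium Lhx1, a homeobox factor, by 1.41 (SE 0.22, adjusted p = 4.39e-05). The difference of Ptch1 was 0.54 with row sets aligned (adjusted p = 0.0121). In Ptch1 the call ended without 12.5 dpc replicate 2 (adjusted p = 0.0529). None of 14 endothelial, 15 macrophage and 8 erythroid genes passed, and 0, 0 and 2 of them had an unadjusted p under 0.05. None of 6 Y-linked genes passed, 1 had an unadjusted p under 0.05, and Eif2s3y, a translation initiation factor on the Y chromosome, stood at 9.99, 9.81 and 10.02 at 12.5 dpc, against 9.77, 9.55 and 10.25 at 11.5 dpc.

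Over the same day 229 genes changed in XX germ cells (1.15%), 189 higher (0.948%) and 40 lower (0.201%), on 2 and 3 arrays. They numbered 428 (2.15%) with row sets aligned, 236 higher and 192 lower. Genes that rose in both sexes numbered 37, which is 25.3% of those that rose in XY and 19.6% of those that rose in XX cells. Genes that fell in both numbered 12, or 10.3% of the XY and 30% of the XX falls, and none went in opposite directions in the 2 sexes with both past the test. Of the methylation-silenced list 8 members rose in XX cells, of the meiosis list 8 and of the piRNA list 4. Of the list of male germ cell differentiation 3 members rose in XX cells and 1 fell. Mael and Tdrd1 rose there by 1.25 and 1.01 (adjusted p = 0.00187 and 0.0245), while Tdrd5, at 0.34, did not pass. Sycp1 and Sycp2 differed by 2.02 and 1.57 there, and neither passed the test of a difference in change between the sexes (XY minus XX -0.43 and 0.31, adjusted p = 0.784 and 0.857).

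The change itself differed between XY and XX germ cells for 29 genes (0.145%), 9 with a higher (0.0451%) and 20 with a lower change in XY (0.1%). Aligning the row sets gave 59 such genes (0.296%), 25 higher (0.125%) and 34 lower (0.171%), and 22 of the 29 were among them. With the array that stood apart kept in the fit 14 genes passed, 8 higher and 6 lower, and 10 of them were among the 29. Without XY 11.5 dpc replicate 2 the count was 173, 10 higher and 163 lower. The 29 included 19 of the 262 genes that changed in XY cells. Mgst2, which rose in XY cells, stood at 6.52 and 6.90 in XX germ cells at 12.5 dpc, against 6.21, 7.46 and 7.24 at 11.5 dpc, and its change was higher in XY by 3.14 (SE 0.50, adjusted p = 0.000264). Etv1 stood at 8.15 and 8.003 in XX germ cells at 12.5 dpc, against 9.12, 8.92 and 8.86 at 11.5 dpc, with a change higher in XY by 2.41 (SE 0.36, adjusted p = 0.000143). For Mgst2 the XX arrays of the stages overlap, and for Etv1 those at 12.5 dpc lie below those of the day before, in contrast to the XY arrays. Hesx1, Dgka, Cst9 and Gatm also had a higher change in XY, by 1.79, 1.69, 2.31 and 1.84.

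Among the genes with a lower change in XY, AU015836 stood at 10.69 and 10.12 in XX germ cells at 12.5 dpc, against 9.53, 9.78 and 9.17 at 11.5 dpc, and the changes differed by -3.69 (SE 0.41, adjusted p = 9.77e-08). Phlda2 stood at 9.86 and 9.74 in XX germ cells at 12.5 dpc, against 10.47, 9.66 and 9.89 at 11.5 dpc, with a difference of changes of -2.24 (SE 0.34, adjusted p = 0.000143). Both kept a high level in XX cells while each XY array at 12.5 dpc was low. Dsp, H2-Bl and 1700013H16Rik also had a lower change in XY, by -1.34, -1.71 and -2.29. For Stra8 the XX cells moved, at 8.05 and 6.87 in XX germ cells at 12.5 dpc, against 5.21, 4.91 and 5.34 at 11.5 dpc, with a difference of changes of -2.00 (SE 0.32, adjusted p = 0.000286). Cubn, an endocytic receptor, and B2m, the light chain of MHC class I, passed the test in XX and not in XY, with differences of changes of -1.98 and -1.98. With row sets aligned the difference for B2m had an adjusted p of 0.0802. Tdgf1, the Nodal coreceptor Cripto, stood at 8.30 and 7.42 in XX germ cells at 12.5 dpc, against 10.70, 10.40 and 9.74 at 11.5 dpc, and its difference in XY was -0.44, with a difference of changes of 1.98 (SE 0.38, adjusted p = 0.00549).

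**Figure D3:**
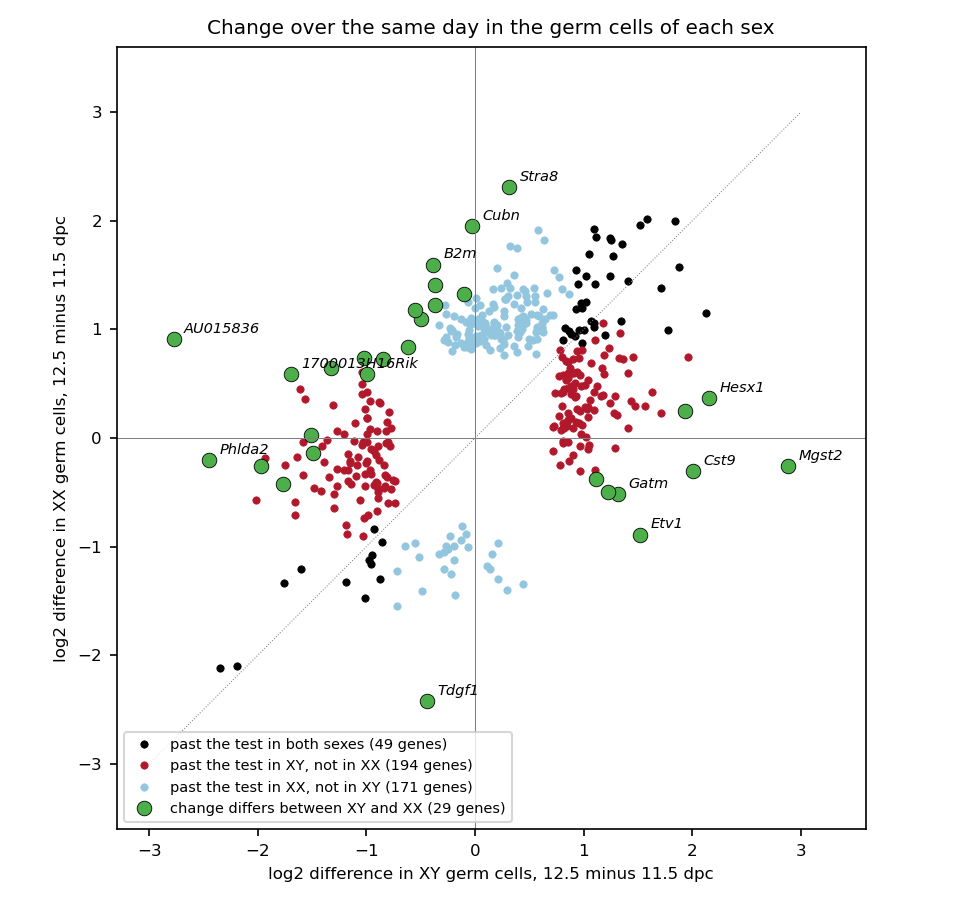
Log2 difference between 12.5 and 11.5 dpc in XY germ cells (horizontal) and in XX germ cells (vertical) for the genes past the test in either sex or in the difference between them, 1 point per gene, with large outlined points for the 29 genes whose change differs between the sexes. Mgst2 and Etv1 lie to the right and AU015836 to the left, with little or opposite change in XX, while Stra8 and Tdgf1 lie near 0 on the XY axis at 2.31 and -2.42 in XX.

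By 13.5 dpc, 475 genes had changed again in XY germ cells (2.38%), 171 higher (0.858%) and 304 lower (1.52%) than at 12.5 dpc. They numbered 1074 (5.39%) with row sets aligned, 574 higher and 500 lower. This contrast shares the 12.5 dpc arrays, so the values are set side by side only. A deviation of those arrays alone enters the contrasts of the days with opposite signs, which favours an apparent turn. Of the 146 genes that had risen, 21 rose again and 5 fell, and of the 116 that had fallen, 27 fell again and 4 rose. Bnc2 stood at 10.31, 10.76 and 10.61 at 13.5 dpc, against 8.67, 8.09 and 8.65 at 12.5 dpc, and Hesx1 at 8.77, 9.70 and 9.51 at 13.5 dpc, against 7.35, 8.07 and 8.12 at 12.5 dpc, so both were higher still. Sycp1, Sycp2, Brdt and Tdrd1 differed by 1.45, 1.65, 1.31 and 1.64 on this second day, and Dsp and Tmsb4x by -1.19 and -1.37. Etv1 stood at 9.01, 9.38 and 9.58 at 13.5 dpc, against 10.82, 10.99 and 10.73 at 12.5 dpc, back near its 11.5 dpc level. Scgn, a calcium-binding protein, had risen by 1.31 (SE 0.25, adjusted p = 0.00113) and differed by -1.68 on the second day. Lhx1, Ugt8a and Pgap6 had risen by 1.41, 1.10 and 0.81 and differed by -0.78, -0.93 and -0.79 thereafter. Morc1, Stard3nl, Eif4g3 and Slc6a6, after falls of -0.85, -1.18, -1.01 and -0.93, differed by 1.47, 0.97, 0.99 and 0.87. Ugt8a missed the test without 12.5 dpc replicate 2 or 3 or without 11.5 dpc replicate 2 (adjusted p = 0.0511 to 0.0802). The call for Pgap6 was lost without 12.5 dpc replicate 1 or 3 or without 11.5 dpc replicate 1 or 2 (adjusted p = 0.0523 to 0.13). Stard3nl did not pass without 12.5 dpc replicate 2 (adjusted p = 0.0662). Slc6a6 fell short of the test without 12.5 dpc replicate 3 or without 11.5 dpc replicate 1 (adjusted p = 0.0591 to 0.06). Kit, the receptor of stem cell factor, differed by -1.30 on the second day, against 0.05 on the day described here.

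**Figure D4:**
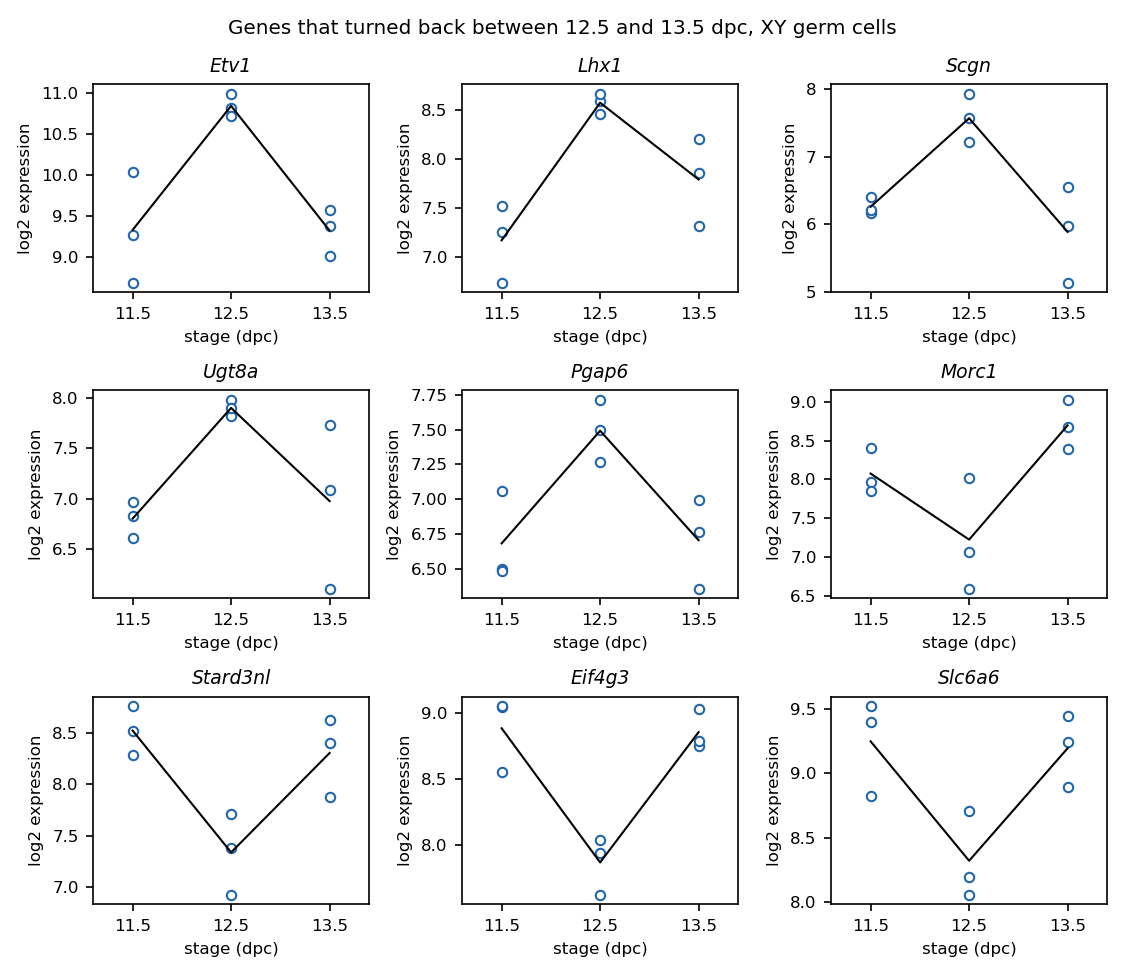
Log2 expression in XY germ cells on the 3 days (11.5, 12.5, 13.5 dpc from left to right) for the 9 genes that passed the test in opposite directions on the 2 days, 1 point per array with lines through the means of 3 arrays, each panel on its own axis. Etv1, Lhx1, Scgn, Ugt8a and Pgap6 peak at 12.5 dpc, Etv1 at 10.73 to 10.99; Morc1, Stard3nl, Eif4g3 and Slc6a6 are lowest at that stage. Both contrasts use the 12.5 dpc arrays with opposite signs, so a deviation of those arrays alone favours this pattern, for which the genes were chosen.

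**Figure D5:**
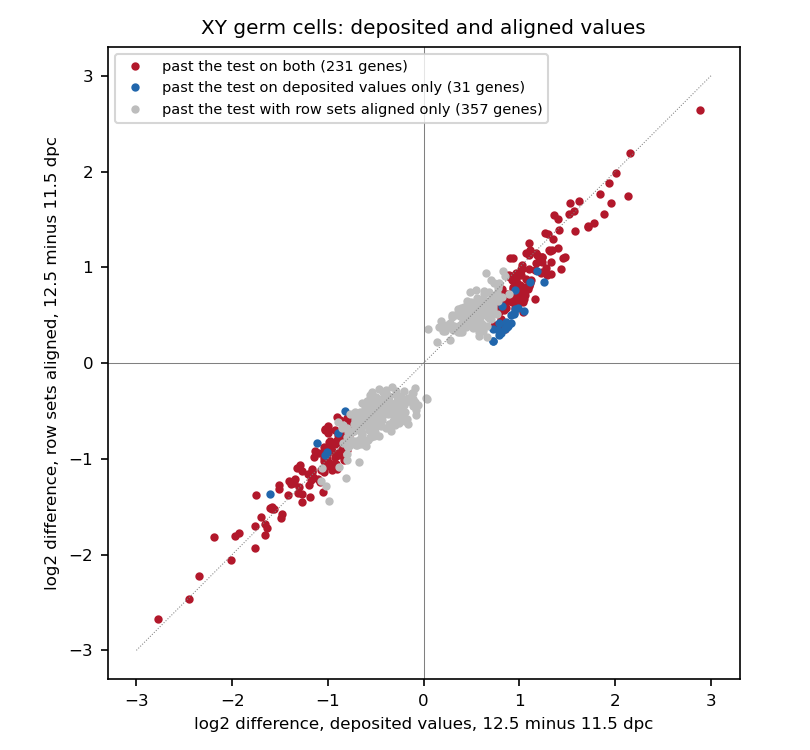
Log2 difference between 12.5 and 11.5 dpc in XY germ cells on the deposited values (horizontal) and with row sets aligned (vertical), 1 point per gene past the test on either. The 231 genes past the test on both lie along the line of equal values, 31 pass on the deposited values alone and 357 with row sets aligned alone, and none of the 262 changes direction.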

How the data were processed

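Log2 expression values per probe set, made with RMA (background correction, normalization between arrays and summary of probes) per the submitters' processing notes, were used as deposited by the authors. No source used here gives its version. Of 35557 probe sets, 21789 had a single gene symbol in the platform annotation. For genes with several, the probe set with the highest mean was kept, which left 19938 genes. Array medians lay between 6.86 and 6.91 at 12.5 dpc and between 6.68 and 6.99 at 11.5 dpc. Chromosomes and promoter windows came from RefSeq (GRCm38.p6).

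The linear model (limma 3.58.1 with lmFit and eBayes, R 4.3.3) fitted a mean for each of 12 groups over 35 arrays, which left 23 residual degrees of freedom, and two-sided p-values were adjusted by Benjamini-Hochberg over all 19938 genes. SE is the standard error of the contrast. The fit was tested on simulated data. Alternatives changed the arrays, the normalization, the filter, the probe set, the variance model and the replicate block, and left out each array in turn. In the alternative with row sets aligned, each set of rows was divided by its slope (1.01 to 1.06) and moved to a common median. Tables and plots used Python 3.11.15 with pandas 2.3.3, numpy 2.4.6 and matplotlib 3.10.9. The 32 gene lists and the genes named were chosen with earlier results of these data known. The named genes are the 12 largest rises and falls among called genes whose stages do not overlap, up to 5 called members per list (otherwise the 2 lowest p), a fixed set, and up to 6 per direction for the sex difference and for a turn on the next day. Rpl10l, Grb10, Mest, Usp29, Etv4, Etv5, Hormad1, Stk31, Taf7l, Esrrb, Klf2, Timp1 and Porcn were named after their values were seen. So were Lef1, Il17rd, Pfkp, Dmrt1, Nr0b1, Jun and Ier2. Genes of the lists without a probe set of their own were not analysed here.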

Additional observations from a re-analysis of the deposited data

Results flagged for a closer look

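For 15 of the named genes the change from 11.5 to 12.5 dpc differed between XY and XX germ cells by the limma test of the difference itself, which is what marks them for a closer look. XX germ cells at 12.5 dpc had 2 arrays. In the following values the XY change comes first, then the XX change, then XY minus XX.

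A higher change in XY was found for Mgst2 (2.89 in XY, -0.26 in XX, difference 3.14), Etv1 (1.52 in XY, -0.89 in XX, difference 2.41) and Cst9 (2.01 in XY, -0.30 in XX, difference 2.31). It was also found for Tdgf1 (-0.44 in XY, -2.42 in XX, difference 1.98), Gatm (1.32 in XY, -0.51 in XX, difference 1.84), Hesx1 (2.16 in XY, 0.37 in XX, difference 1.79) and Dgka (1.93 in XY, 0.25 in XX, difference 1.69).

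A lower change in XY was found for AU015836 (-2.77 in XY, 0.91 in XX, difference -3.69), 1700013H16Rik (-1.70 in XY, 0.59 in XX, difference -2.29) and Phlda2 (-2.45 in XY, -0.20 in XX, difference -2.24). Stra8 (0.31 in XY, 2.31 in XX, difference -2.00), Cubn (-0.03 in XY, 1.95 in XX, difference -1.98) and B2m (-0.39 in XY, 1.60 in XX, difference -1.98) differed through XX values above 0. The others were H2-Bl (-1.97 in XY, -0.26 in XX, difference -1.71) and Dsp (-1.76 in XY, -0.42 in XX, difference -1.34). With row sets aligned, B2m alone of the 15 missed the test, with a difference of -1.39 and an adjusted p of 0.0802. With all 36 arrays 5 of the 15 passed (Mgst2, Etv1, Hesx1, Dgka and Tdgf1), and without XX 12.5 dpc replicate 2 there were 9, with B2m, Cst9, Dgka, Gatm, H2-Bl and Tdgf1 missing the test. Array weights ended the call for Cst9, Gatm and Tdgf1. Dsp passed in 13 of its 23 alternatives, H2-Bl in 15 of 22 and B2m in 16 of 23, while Mgst2, Etv1 and Hesx1 passed in all 23. None of the 15 changed direction in any of these alternatives.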

How the results depend on the processing

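The count of 262 genes in XY germ cells stayed within 1.5 times under the fits on germ cell arrays only, XY germ cell arrays only or the 6 arrays, centring, quantile normalization, the filter on dim genes, the mean of probe sets, the variance trend, array weights and the replicate block (266). It was 104 with all 36 arrays, 138 with a difference of at least 1, 588 with row sets aligned, and 146 to 268 without each array in turn, lowest without 12.5 dpc replicate 2. Without 11.5 dpc replicate 3 it was 174, without 11.5 dpc replicate 2 it was 268 but split 90 higher and 178 lower, and 96 genes (55 higher, 41 lower) passed in all 6 of these fits. Combined with aligned row sets, in alternatives chosen after seeing the data, the count was 371 to 446 without each array (403, 444 and 435 without 11.5 dpc replicates 1 to 3, 438 and 446 without 12.5 dpc replicates 1 and 3), 703 on the 6 arrays and 559 with the replicate block. The 29 genes whose change differed between the sexes became 14 with all 36 arrays (8 higher and 6 lower, against 9 and 20), 62 on germ cell arrays, 53 centred, 55 after quantile normalization, 59 with row sets aligned (55 with the replicate block as well), 28 with the replicate block alone and 20 to 173 without each array, 173 without XY 11.5 dpc replicate 2 (10 higher, 163 lower) and 78 without XX 12.5 dpc replicate 1. The 475 genes of 13.5 minus 12.5 dpc became 199 with all 36 arrays, 1074 with row sets aligned, 491 with the replicate block and 240 to 524 without each array. Without XY 13.5 dpc replicate 1 they were 240 (150 higher, 90 lower), without XY 12.5 dpc replicate 2 or 3 they were 309 or 287. The 229 genes of XX germ cells became 356 with all 36 arrays, 1 on the 5 arrays compared, 89 with array weights, 428 with row sets aligned (731 with all 36 arrays as well), 137 with the replicate block and 53 to 231 without each array. They were 53 without XX 12.5 dpc replicate 2 and 126 without XX 11.5 dpc replicate 3. Other splits moved by over 10 percentage points: 274 higher and 239 lower after quantile normalization for 13.5 minus 12.5 dpc, against 171 and 304, and 171 and 139 centred, or 172 and 95 after quantile normalization, for XX, against 189 and 40. Array weights gave 274 and 201 for 13.5 minus 12.5 dpc.

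No named gene reversed its direction in XY germ cells between 11.5 and 12.5 dpc while past the test. With all 36 arrays 32 named genes lost the call, with row sets aligned 1 (Cdh1). Deviations from the stage means were compared between arrays of the different stages. For the 3 replicate numbers, arrays with the same number had r = -0.357, -0.212 and -0.124. With row sets aligned r was -0.195, -0.027 and -0.044. Arrays with different numbers had r of -0.139 to 0.373, and of -0.101 to 0.14 with row sets aligned. Deviations from means of 3 arrays cannot decide whether the numbers pair the arrays. The replicate block is given here alone. The cause of these changes was not tested.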

Other observations

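Genes of the X chromosome were 3.71% of the genes tested and 12.1% of those that fell in XY germ cells, 14 of 116. Of 739 X-linked genes 8 rose (1.08%) and 14 fell (1.89%), against 0.732% and 0.582% of all genes. Aligning the row sets gave 11 that rose and 29 that fell. In XX germ cells 13 X-linked genes rose over the same day (1.76%) and none fell, against 0.948% and 0.201% of all genes, and 3 of the 14 genes, AU015836, 1700013H16Rik and Porcn, had a change that differed between the sexes. Porcn, which prepares WNT ligands for secretion, had a difference of -1.49 in XY (SE 0.19, adjusted p = 4.89e-07) and of -0.14 in XX germ cells. The 14 also included Tmsb4x, Rhox6 and, at -0.97, Timp1, an inhibitor of matrix proteases. Timp1 lost the call without 12.5 dpc replicate 2 or without 11.5 dpc replicate 1 (adjusted p = 0.058 to 0.0715), and Porcn with all 36 arrays (adjusted p = 0.0539). The group was noticed after its values were seen and was not tested as a group.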
